A study of Mus musculus with 10 samples.

Results

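The 10 genes described here encode cell surface receptors for extracellular nucleotides and adenosine, and the enzymes that convert one into the other. They were taken by gene symbol from the 55471 genes counted in each of 10 total RNA libraries of cultured primary mouse microglia, the resident macrophages of the brain. They comprise 3 P2Y receptors for nucleotides (P2ry6, P2ry13, P2ry14), 2 ATP-gated P2X channels (P2rx4, P2rx7), 2 ectonucleotidases (Entpd1, Nt5e) and 3 adenosine receptors (Adora1, Adora2a, Adora3). All cells came from wild-type mice and were kept in serum-containing DMEM with antibiotics. In 5 libraries, labelled knockdown, the cells had received gapmers against the long noncoding RNA 3222401L13Rik, and in the other 5 they had received control gapmers. A gapmer is a short antisense oligonucleotide that directs RNase H to cut the RNA it binds. The labels do not say whether libraries of 1 group came from separate cultures or animals, so the p-values measure the spread between these libraries, which may be technical.

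ATP leaving stressed or damaged cells opens P2X channels and activates P2Y receptors, and microglia are known for using these receptors to move toward injury, to engulf debris and to release interleukin-1 beta. Entpd1 (CD39) strips ATP and ADP to AMP, Nt5e (CD73) turns AMP into adenosine, and adenosine in turn acts on the Adora receptors. The chain runs from the nucleotide receptors through the 2 enzymes to the adenosine receptors.

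The targeted transcript was not called lower in these counts. Reads of 3222401L13Rik numbered 22, 38, 24, 33 and 29 in the knockdown-labelled libraries, against 30, 29, 28, 33 and 34 in the control libraries (edgeR quasi-likelihood log2 fold change -0.17 with an SE of 0.23 and a 95% interval of -0.63 to 0.29, adjusted p = 0.541). Microglial markers dominated the marker lists, with 3154 to 3680 summed counts per 1000000 reads (CPM) over 12 genes in the knockdown-labelled libraries and 2589 to 3072 in the control libraries. Of the 12, 9 were called higher and 1 lower, beside 22.9% higher and 31.3% lower of all tested genes. The lower one was Siglech, at 1.52 CPM in the knockdown-labelled and 5.17 CPM in the control libraries on average. Tmem119 was also low, at 2.72 CPM in the knockdown-labelled and 2.84 CPM in the control libraries. Depth averaged 6.20 ± 0.439 in the knockdown-labelled and 5.11 ± 0.489 in the control libraries, in units of 1000000 reads (SD, n = 5 each). An exact permutation test of depth, two-sided, gave p = 0.0159.

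Genes with no known use in microglia carried a low signal that was weaker in the knockdown-labelled libraries, and it touches every low value given here. Its measure, called background density, is the number of reads on 1135 olfactory receptor genes, divided by kilobases of exon and by depth in 1000000 reads. It averaged 0.257 ± 0.0674 in the knockdown-labelled and 0.599 ± 0.147 in the control libraries (SD, n = 5 each), and the control mean was 2.33 times the knockdown-labelled mean. An exact permutation test, two-sided, gave p = 0.00794, the smallest it can give. The density averaged 0.241 in knockdown-labelled and 0.639 in control libraries of lane 7 (3 libraries per group), and 0.280 in knockdown-labelled and 0.539 in control libraries of lane 8 (2 per group). Density times depth times exon length gives the background reads predicted for a gene, and their share of the reads observed over all 10 libraries is called its background share. The 12 microglial markers had a median share of 0.690%, and Siglech had 43.2%. Of all tested genes with a share under 5%, 75.3% were called higher, and 9 of 12 markers is not set apart from that. For the targeted 3222401L13Rik this share was 48.0%, with 33.8% within the knockdown-labelled and 61.4% within the control libraries. Above the prediction it had 19.3 ± 6.60 reads in the knockdown-labelled and 11.9 ± 4.59 in the control libraries (SD, n = 5 each). Reads this near the background cannot decide whether the transcript was lowered.

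The promoters of 4 of the genes are shown, since the abundant genes P2rx7, P2rx4 and Entpd1 and the low gene Nt5e carry the comparisons that follow. They span 250 bases before to 50 bases after an annotated start (RefSeq, GRCm38.p6), and RefSeq entries matched 8 of the 10 genes, with 14 promoters in all. Capitals mark GAGGAA, the core of the box read by the myeloid factor PU.1, and TGANTCA, the site of AP-1 factors, each searched on both strands.
P2rx7 (chr5:122643677-122643976, plus strand): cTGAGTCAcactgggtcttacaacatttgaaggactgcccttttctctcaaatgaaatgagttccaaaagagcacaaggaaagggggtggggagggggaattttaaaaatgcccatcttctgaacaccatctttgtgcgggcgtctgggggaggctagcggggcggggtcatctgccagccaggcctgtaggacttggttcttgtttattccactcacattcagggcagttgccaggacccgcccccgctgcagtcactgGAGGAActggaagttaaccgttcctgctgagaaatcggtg
P2rx4 (chr5:122707294-122707593, plus strand): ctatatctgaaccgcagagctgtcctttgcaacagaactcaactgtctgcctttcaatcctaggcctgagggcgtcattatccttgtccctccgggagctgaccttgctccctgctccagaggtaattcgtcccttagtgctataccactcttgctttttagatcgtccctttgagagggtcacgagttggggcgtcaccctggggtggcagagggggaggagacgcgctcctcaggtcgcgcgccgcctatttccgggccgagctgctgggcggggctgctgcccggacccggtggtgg
Entpd1 (chr19:40659520-40659819, plus strand): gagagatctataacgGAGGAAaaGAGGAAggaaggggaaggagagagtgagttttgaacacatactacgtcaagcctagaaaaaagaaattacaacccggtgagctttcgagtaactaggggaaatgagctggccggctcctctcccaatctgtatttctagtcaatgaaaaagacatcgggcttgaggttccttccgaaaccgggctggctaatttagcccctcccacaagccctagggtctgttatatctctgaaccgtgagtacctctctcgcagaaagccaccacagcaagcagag
Nt5e (chr9:88327359-88327658, plus strand): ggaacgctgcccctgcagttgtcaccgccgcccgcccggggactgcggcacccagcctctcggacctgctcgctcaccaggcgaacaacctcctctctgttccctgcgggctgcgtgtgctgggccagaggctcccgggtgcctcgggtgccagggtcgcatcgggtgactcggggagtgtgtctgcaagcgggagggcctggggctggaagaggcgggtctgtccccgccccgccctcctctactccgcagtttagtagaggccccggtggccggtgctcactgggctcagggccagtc
The P2rx7 promoter holds 1 match to each motif, the Entpd1 promoter holds 2 matches to GAGGAA, and neither motif is in the windows of P2rx4 and Nt5e. GAGGAA was found in 9 of the 14 promoters and for 5 of the 8 genes (Adora3, Entpd1, P2rx7, P2ry13 and P2ry14), and 28.3% of all 32851 promoters of that length held it. TGANTCA was found in 5 of the 14 promoters, for Adora1, Adora3, P2rx7 and P2ry14, against 7.81% of all promoters. P2ry14 has the most promoters of the 8 genes, each with GAGGAA. Its windows chr3:59131069-59131368 and chr3:59131279-59131578 overlap and hold the same GAGGAA match. The counts of promoters are thus not independent, and they were not tested against the shares of all promoters. The shown windows of P2rx7 and Entpd1 are 1 of 2 for each gene, and the Entpd1 window is the one with a match. A match describes letters in the window and no measured binding.

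The 10 genes fell into an abundant set and a low set, set apart here by level per length (CPM per kilobase of exon). P2ry6 and P2rx4 stood highest, with means over all libraries of 31.1 and 27.0 CPM per kb, followed by Entpd1 at 14.7, P2rx7 at 11.9 and P2ry13 at 5.05. Adora1 (1.20), Adora2a (0.990), P2ry14 (0.982), Adora3 (0.919) and Nt5e (0.866 CPM per kb) formed the low set. P2ry6 lay above P2rx4 in 5 of 5 knockdown-labelled and 5 of 5 control libraries, though the control ranges of the pair overlapped. From P2rx4 down to Adora1, neighbours in the order did not overlap in either group. Among the 5 low genes every pair of neighbours overlapped in both groups, so their order does not exceed the spread between libraries. The olfactory receptor genes gave 0.277 CPM per kb in the knockdown-labelled and 0.566 in the control libraries on the same scale. All 10 genes had more reads than that background predicted in all 10 libraries.

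**Figure D1:**
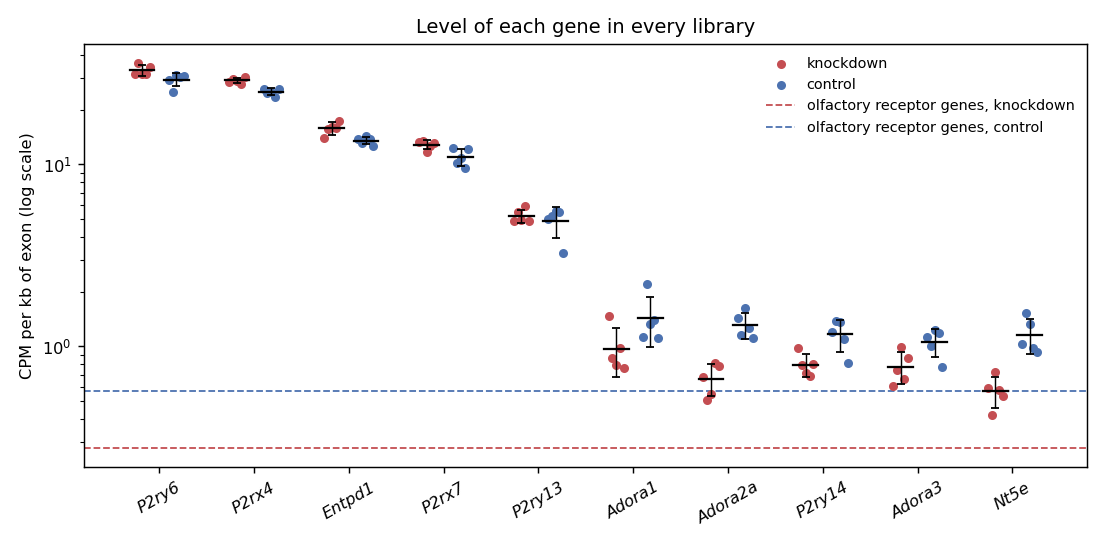
Level of each of the 10 genes in CPM per kb of exon (log axis), with 1 point per library, knockdown-labelled left and control right, and black bars for the mean ± SD (n = 5 each). Dashed lines mark the mean level of the olfactory receptor genes in each group, 0.277 and 0.566 CPM per kb, and the 5 low genes lie nearest to them, each point above the line of its own group.

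All 10 genes passed the filter on low counts and were among the 19263 genes tested. Of the 10, 4 were called higher (P2ry6, P2rx4, P2rx7, Entpd1) and 4 lower (P2ry14, Nt5e, Adora1, Adora2a) in the knockdown-labelled libraries at an adjusted p under 0.05. Among all 19263 tested genes 22.9% were called higher and 31.3% lower, and 4 of 10 in each direction is too small a count to be set apart from those shares. The median log2 fold change of the 10 genes was -0.18, beside -0.10 over all tested genes. The calls split by level, with abundant genes higher and low genes lower, but not under every scaling. The 4 rises were also called with DESeq2 size factors, and they were not called, and in part turned sign, when scaled on the upper quartile, on library totals or on genes with a background share under 5% (the 3 other scalings named further on). All 4 genes called higher had a background share under 5%, and all 4 genes called lower had one over 20%. In these bulk samples fewer cells of a type and less RNA per cell cannot be told apart.

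Both P2X channels were called higher after TMM scaling, by about the same factor, and neither was called under the 3 other scalings. P2rx4 encodes the ATP-gated cation channel that microglia raise after nerve injury (ENSMUSG00000029470, chr5:122707544-122729738, plus strand). It had 200.4, 208, 202, 195 and 211 CPM in the knockdown-labelled libraries, against 183, 173, 176, 165 and 183 CPM in the control libraries. All 5 knockdown-labelled libraries lay above all 5 control libraries, a pattern that 12.6% of all tested genes shared. The difference was 0.21 on the log2 scale (SE 0.06, 95% interval 0.09 to 0.32, adjusted p = 0.00227 by edgeR), or 1.16-fold. It was 0.22 within lane 7 (adjusted p = 0.0263) and 0.24 within lane 8 (adjusted p = 0.179).

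P2rx7 encodes the channel that opens at high ATP and triggers the NLRP3 inflammasome (ENSMUSG00000029468, chr5:122643911-122691432, plus strand). Its annotated end lies 16111 bases from the start of P2rx4 on the same strand. It had 79.2, 80.8, 69.7, 75.4 and 78.7 CPM in the knockdown-labelled libraries, against 73.9, 60.7, 64.4, 57.1 and 72.1 CPM in the control libraries. The groups overlapped, since knockdown-labelled replicate 3 lay below control replicates 1 and 5. Its log2 fold change came to 0.22 (SE 0.07, 95% interval 0.08 to 0.36, adjusted p = 0.00628 by edgeR), with 0.22 in lane 7 (adjusted p = 0.0429) and 0.27 in lane 8 (adjusted p = 0.157). Within single libraries the ratio of P2rx4 to P2rx7 per kilobase averaged 2.256 ± 0.125 in the knockdown-labelled and 2.291 ± 0.156 in the control libraries (SD, n = 5 each), and the groups overlapped. The ratios in this and later paragraphs were chosen after the values were seen and were not tested.

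Of the P2Y receptors, P2ry6 was called higher after TMM scaling but under none of the 3 other scalings, P2ry13 was not called, and P2ry14 was called lower. P2ry6, the UDP receptor that drives microglial phagocytosis (ENSMUSG00000048779, chr7:100937630-100974649, minus strand), had 90.7, 104, 91.0, 90.4 and 99.6 CPM in the knockdown-labelled libraries. The control libraries had 84.1, 72.5, 89.3, 87.0 and 88.8 CPM. All knockdown-labelled values lay above all control values, with 90.4 CPM as the lowest knockdown-labelled and 89.3 CPM as the highest control value. Its log2 fold change was 0.17 (SE 0.07, 95% interval 0.04 to 0.30, adjusted p = 0.0227 by edgeR). The call ended without control replicate 2 (0.13, adjusted p = 0.0777) or without knockdown-labelled replicate 2 (0.17, adjusted p = 0.0546). Within lane 7 the value was 0.23 (adjusted p = 0.0273) and within lane 8 it was 0.13 (adjusted p = 0.461).

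P2ry13, an ADP receptor beside P2ry12 (ENSMUSG00000036362, chr3:59207892-59210882, minus strand), had 12.3, 13.8, 12.5, 14.9 and 12.4 CPM in the knockdown-labelled libraries. The control libraries had 12.7, 13.1, 13.99, 13.8 and 8.21 CPM. The groups overlapped, and control replicate 5 stood below the rest. Between groups the log2 difference was 0.09 (SE 0.14, 95% interval -0.19 to 0.38, adjusted p = 0.596 by edgeR), so a change as large as that of the P2X channels lies within its interval. Its value was -0.02 in lane 7 and 0.33 in lane 8. The best known microglial ADP receptor, P2ry12, lies on the same strand with its annotated end 5389 bases upstream of P2ry13, and averaged 14.3 ± 0.991 CPM in the knockdown-labelled and 11.4 ± 2.39 CPM in the control libraries (SD, n = 5 each). P2ry12 was called higher (log2 fold change 0.33, SE 0.14, edgeR adjusted p = 0.0470), a call kept in 5 of the 10 fits that left out 1 library.

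P2ry14, the receptor for UDP-sugars (ENSMUSG00000036381, chr3:59113855-59153618, minus strand), had 10.8, 8.79, 7.93, 7.61 and 8.86 CPM in the knockdown-labelled libraries. The control libraries had 13.3, 15.2, 15.1, 12.2 and 8.93 CPM. The groups overlapped through knockdown-labelled replicate 1, which lay above control replicate 5. Its fold change on the log2 scale was -0.55 (SE 0.16, 95% interval -0.87 to -0.23, adjusted p = 0.00315 by edgeR), with -0.65 in lane 7 (adjusted p = 0.00546) and -0.33 in lane 8 (adjusted p = 0.457). Its annotated exons run to 11059 bases, the longest of the 10 genes, and its background share was 42.6%. Above the predicted background it had 32.6 ± 6.92 reads in the knockdown-labelled and 35.6 ± 10.0 reads in the control libraries (SD, n = 5 each), and with that background subtracted it was not called (-0.50). All fits with background subtracted, here and below, were also scaled on genes with a background share under 5%. That scaling alone gave P2ry14 -0.81. With the background of 331 vomeronasal receptor genes subtracted P2ry14 was called lower (-0.61, edgeR adjusted p = 0.0248), and with that of 42 beta-defensin genes it was not (0.073). P2ry13 and P2ry14 lie inside Med12l on the opposite strand with no exon in common, and Med12l averaged 60.8 reads in the knockdown-labelled and 91.6 in the control libraries. Whether reads were counted by strand is not given in the sources used here.

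The 2 ectonucleotidases were called in opposite directions after TMM scaling, Entpd1 higher and Nt5e lower, and under the 3 other scalings Nt5e alone was called. Entpd1, which removes ATP and ADP (ENSMUSG00000048120, chr19:40612366-40741602, plus strand), had 77.5, 87.4, 89.8, 88.5 and 97.3 CPM in the knockdown-labelled libraries. The control libraries had 76.8, 73.4, 79.7, 76.5 and 70.7 CPM. The groups overlapped through knockdown-labelled replicate 1, which lay within the control range, and the other 4 knockdown-labelled libraries lay above every control library. On the log2 scale the difference was 0.22 (SE 0.07, 95% interval 0.09 to 0.36, adjusted p = 0.0036 by edgeR), with 0.17 in lane 7 (adjusted p = 0.12) and 0.36 in lane 8 (adjusted p = 0.0776). Per kilobase, Entpd1 stood at 0.545 ± 0.0378 of P2rx4 in the knockdown-labelled and 0.541 ± 0.0389 of it in the control libraries (SD, n = 5 each).

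Nt5e makes adenosine from AMP at the cell surface (ENSMUSG00000032420, chr9:88327197-88372092, plus strand). It had 27, 21, 37, 28 and 27 reads in the knockdown-labelled libraries, against 49, 63, 62, 46 and 45 reads in the control libraries. In CPM these were 5.10, 3.62, 6.24, 4.95 and 4.60 in the knockdown-labelled and 8.92, 13.1, 11.4, 8.48 and 8.04 in the control libraries. All knockdown-labelled values lay below all control values, as for 14.2% of all tested genes. Its log2 fold change stood at -1.02 (SE 0.20, 95% interval -1.42 to -0.61, adjusted p = 5.07e-05 by edgeR), the lowest of the 10. It was -1.13 in lane 7 (adjusted p = 0.000239) and -0.77 in lane 8 (adjusted p = 0.175). The call held in all 10 fits that left out 1 library (-1.10 to -0.89). The ratio of Nt5e to Entpd1 per kilobase averaged 0.0363 ± 0.00774 in the knockdown-labelled and 0.0859 ± 0.0187 in the control libraries (SD, n = 5 each), with no overlap. Background reads were left in this ratio, at a background share of 48.6% for Nt5e and 2.81% for Entpd1. Since the fit already called these genes in opposite directions, the ratio adds no separate evidence.

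About as many Nt5e reads were predicted from background as were left above it. The prediction was 13.5 ± 2.69 reads in the knockdown-labelled and 25.8 ± 3.82 in the control libraries, and 14.5 ± 6.98 reads in the knockdown-labelled and 27.2 ± 7.28 in the control libraries remained above it (SD, n = 5 each). The background share was 48.3% in the knockdown-labelled and 48.7% in the control libraries. Of the 1706 tested genes with a background share of 40% to 50%, the median log2 fold change was -0.85, 69.5% were called lower and 503 had a value below that of Nt5e. On the scaling of the fits with subtraction (genes under a 5% share) Nt5e had -1.27 without any subtraction. With the predicted reads subtracted, Nt5e was still called lower (-1.29, edgeR adjusted p = 0.00970). With a background measured on 331 vomeronasal receptor genes it was also called (-1.24, adjusted p = 0.00103). On 42 beta-defensin genes the predicted reads were 26.2 ± 5.33 in the knockdown-labelled and 44.2 ± 9.05 in the control libraries (SD, n = 5 each). That left Nt5e above background in 3 of 5 libraries of each group and out of the test. With background density as a covariate it was not called (-0.55, SE 0.34, adjusted p = 0.753).

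**Figure D2:**
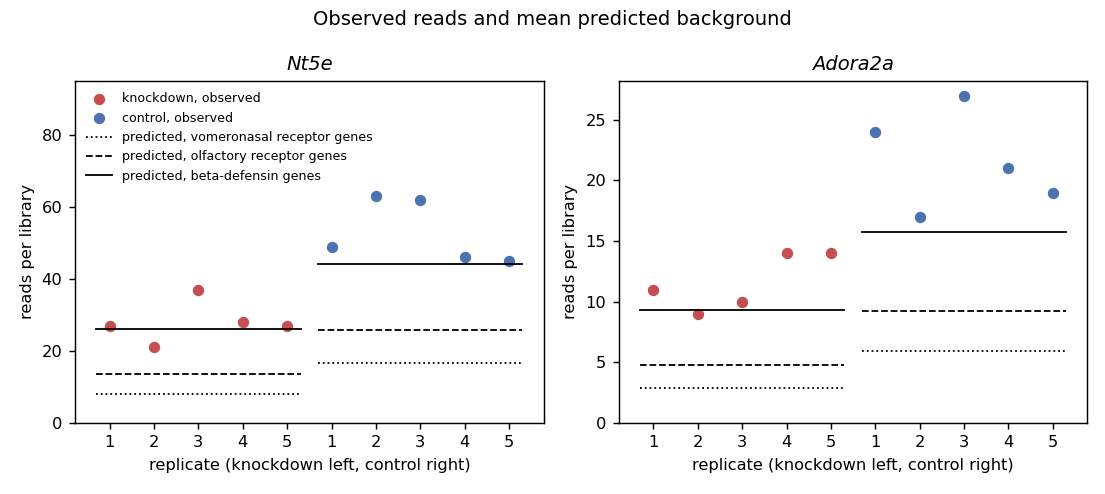
Reads of Nt5e and Adora2a in each library (points, knockdown-labelled left, control right) and the mean background predicted from 3 classes of genes that microglia are not known to use (lines). For Nt5e the prediction ran from 8.10 to 26.2 reads in the knockdown-labelled and from 16.6 to 44.2 reads in the control libraries, depending on the class.

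The adenosine receptors were all low, and 2 of the 3 were called lower. Adora2a, which raises cyclic AMP (ENSMUSG00000020178, chr10:75316877-75334784, plus strand), had 11, 9, 10, 14 and 14 reads in the knockdown-labelled libraries, against 24, 17, 27, 21 and 19 reads in the control libraries. No knockdown-labelled library reached the lowest control library. In CPM it averaged 2.04 ± 0.411 in the knockdown-labelled and 4.03 ± 0.647 in the control libraries (SD, n = 5 each). That was -0.98 on the log2 scale (SE 0.30, 95% interval -1.58 to -0.38, adjusted p = 0.00506 by edgeR). It was -1.25 in lane 7 (adjusted p = 0.00877) and -0.55 in lane 8 (adjusted p = 0.48). The ratio of Adora2a to Entpd1 per kilobase, again with background reads left in, averaged 0.0422 ± 0.0085 in the knockdown-labelled and 0.0969 ± 0.0114 in the control libraries (SD, n = 5 each), with no overlap. The background share of Adora2a was 42.2%, with 4.81 reads predicted in the knockdown-labelled and 9.20 in the control libraries on average. After subtraction of the olfactory receptor or the beta-defensin background Adora2a had too few reads to be tested, and after subtraction of the vomeronasal background it was called lower (-1.19, edgeR adjusted p = 0.0217). The scaling of that fit alone, on genes under a 5% share, gave Adora2a -1.22.

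Adora1, which couples to inhibitory G proteins (ENSMUSG00000042429, chr1:134199223-134235431, minus strand), had 8.51, 5.00, 4.56, 5.66 and 4.43 CPM in the knockdown-labelled libraries. The control libraries had 6.56, 12.7, 7.73, 8.11 and 6.43 CPM. The groups overlapped, with knockdown-labelled replicate 1 above 4 of the 5 control libraries. The estimated log2 difference was -0.56 (SE 0.21, 95% interval -0.98 to -0.13, adjusted p = 0.0244 by edgeR), with -0.55 in lane 7 (adjusted p = 0.0735) and -0.50 in lane 8 (adjusted p = 0.374). The call ended without control replicate 2 (-0.35) and without knockdown-labelled replicates 2 (-0.49), 3 (-0.47) or 5 (-0.45). Nor was it called with the olfactory receptor background (-0.60), the vomeronasal background (-0.68) or the beta-defensin background (-0.41) subtracted, at a background share of 35.0%. The scaling of those fits alone, on genes under a 5% share, gave -0.81 for Adora1. Of its annotated exon bases 20.1% overlap exons of Mybph on the opposite strand, a gene with 4.0 reads in the knockdown-labelled and 6.8 in the control libraries on average.

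Adora3, another receptor coupled to inhibitory G proteins (ENSMUSG00000000562, chr3:105870858-105908926, plus strand), had 2.27, 2.76, 3.71, 2.48 and 3.24 CPM in the knockdown-labelled libraries. The control libraries had 4.19, 3.74, 4.60, 4.42 and 2.86 CPM. The groups overlapped, and the difference of -0.45 on the log2 scale did not pass the test (SE 0.28, 95% interval -1.01 to 0.11, adjusted p = 0.170 by edgeR). It was -0.49 in lane 7 and -0.32 in lane 8. Its exons share 779 bases with Tmigd3 on the same strand, so reads of that stretch cannot be given to one gene, and its background share was 45.1%.

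**Figure D3:**
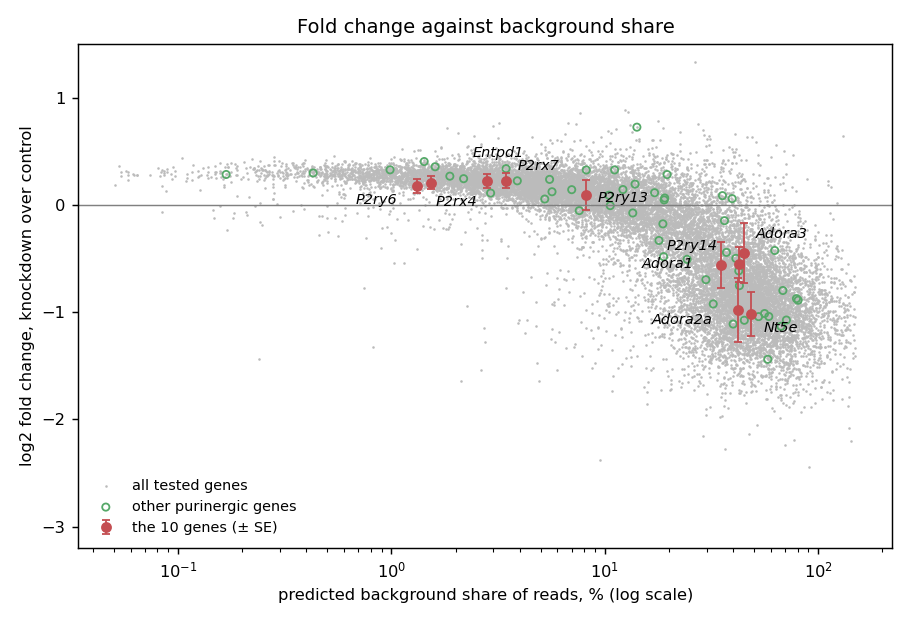
Log2 fold change (knockdown-labelled over control) against the predicted background share of reads in percent (log axis), for all tested genes in grey, other purinergic genes as open circles and the 10 genes in red with SE. Points move from above 0 to below 0 as the share grows, and the 10 genes lie within the grey cloud.

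The split between abundant and low genes followed that of all genes with the same background share. Among the 4743 tested genes with a share under 5%, 75.3% were called higher and the median log2 fold change was 0.24, while P2ry6, P2rx4, P2rx7 and Entpd1 had 0.17, 0.21, 0.22 and 0.22. P2ry13, at a share of 8.19%, had 0.09 beside a median of 0.07 for the 5506 genes between 5% and 20%. Adora1, at 35.0%, had -0.56 beside a median of -0.58 for the 3886 genes between 20% and 40%. P2ry14 (-0.55) and Adora3 (-0.45) lay above the median of -0.85 for shares of 40% to 50%, and Nt5e (-1.02) and Adora2a (-0.98) below it. Background density did not overlap between the groups (0.188 to 0.343 in knockdown-labelled and 0.425 to 0.816 in control libraries), so a fit with density as a covariate can hardly tell the 2 apart. In that fit Adora2a stood at -0.92 (SE 0.52), Entpd1 at 0.18 (SE 0.11) and Adora1 at 0.45 (SE 0.36), and none of the 10 genes was called, beside 4 genes called higher and 16 lower in the whole table. The part of the background in these differences was not tested beyond the subtraction and covariate fits given here.

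The rises of the abundant genes also depended on how libraries were put on 1 scale. With DESeq2 size factors P2ry6, P2rx4, P2rx7 and Entpd1 had 0.24, 0.28, 0.29 and 0.29, and with no filter on low counts 0.30, 0.34, 0.35 and 0.36, and all 4 were called in both. Scaling on the upper quartile moved the median of all tested genes to -0.24, scaling on library totals to -0.30 and scaling on genes with a background share under 5% to -0.34. Under upper-quartile scaling P2ry6, P2rx4, P2rx7 and Entpd1 had log2 fold changes of 0.03, 0.06, 0.08 and 0.08, and none was called. On library totals they had -0.03, 0.00, 0.02 and 0.02, and on genes with a share under 5% they had -0.07, -0.04, -0.02 and -0.02, again with no call. The sign thus turned for P2ry6 on library totals and for all 4 on genes under 5%. A filter of 5 CPM in 5 libraries, which leaves fewer low genes in the scaling, gave 0.05, 0.09, 0.11 and 0.11 and no call. A change of scaling moves all genes by about the same amount. The 4 genes thus stayed above the median of all tested genes under each of the 3 scalings, which adds no separate evidence. Under those 3 scalings P2ry14, Nt5e, Adora1 and Adora2a were called lower each time, with Nt5e at -1.17 on the upper quartile and -1.27 on genes with a share under 5%. Adora3 also passed the test when scaled on the genes under 5% (-0.70, edgeR adjusted p = 0.0472). Lower calls over all 19263 tested genes rose as well, from 6033 with TMM to 7195, 7888 and 8585 under the 3 scalings. The kept calls are thus no separate evidence. None of the 10 genes was called lower in lane 8 alone or with background density as a covariate.

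**Figure D4:**
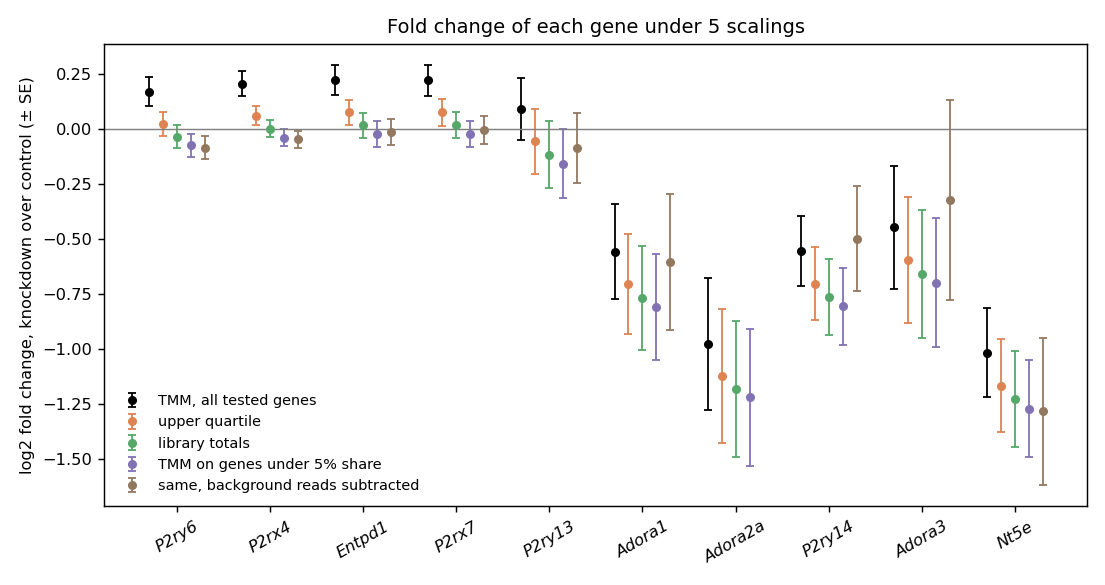
Log2 fold change (knockdown-labelled over control, ± SE) of each of the 10 genes under TMM, upper-quartile, library-total and under-5%-share scaling, and the last of these with background reads subtracted. P2ry6, P2rx4, P2rx7 and Entpd1 sit between 0.17 and 0.22 with TMM on all tested genes and between -0.07 and 0.08 with the upper quartile, library totals or genes under a 5% share, while Nt5e lies between -1.29 and -1.02 over all 5 fits drawn.

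Around these genes, 54 other genes of purinergic signalling were followed, of which 52 were tested. Of the 52, 13 were called higher, 14 lower and 25 were not called, beside 22.9% higher and 31.3% lower of all tested genes. The median log2 fold change of the 52 was 0.02. P2rx1 had too few reads to be tested. Entpd4 had no reads in any library, though background predicted 12.7 in the knockdown-labelled and 24.2 in the control libraries on average. Its lack of reads is therefore not read as a low level, and the cause was not tested. All 4 of the other tested P2X channels were called lower, namely P2rx2 (-1.04), P2rx3 (-0.92), P2rx5 (-0.70) and P2rx6 (-1.01), at background shares of 29.8% to 56.1%. Of all tested genes, 49.2% were called lower at shares of 20% to 40%, 69.5% at 40% to 50% and 72.4% at 50% to 70%. P2rx5 kept its call in 3 of the 10 fits that left out 1 library. P2rx4 (1.53%) and P2rx7 (3.46%) had the lowest background shares of the tested P2X channels. Of the other P2Y receptors P2ry4 was called lower (-0.89, background share 80.5%, a call kept in 6 of the 10 fits that left out 1 library), and P2ry1 (0.19) and P2ry2 (-0.05) were not called. Adora2b, the remaining adenosine receptor, had -0.15 and was not called.

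Of 9 further ecto-enzymes that act on nucleotides 6 were called lower and none higher, beside 31.3% lower and 22.9% higher of all tested genes. Among the 6 were the alkaline phosphatase Alpl (-1.11), Entpd8 (-1.44), Enpp3 (-1.07) and the acid phosphatase Acpp (-0.87). Their background shares of 39.9%, 58.0%, 70.9% and 79.1% were all above that of Adora1. The intracellular relatives Entpd5 (0.09), Entpd6 (0.14) and Entpd7 (0.12) were not called. Of 15 genes of adenosine transport and metabolism 5 were called higher and 1 lower, beside the same 22.9% and 31.3% of all tested genes. Nt5c, a cytosolic nucleotidase, had 37.4 ± 3.43 CPM in the knockdown-labelled and 28.3 ± 4.90 CPM in the control libraries (SD, n = 5 each, log2 fold change 0.40, edgeR adjusted p = 0.000304). Nt5c kept its call on the upper quartile but not on library totals. The lysosomal nucleoside transporter Slc29a3 had 0.22 (-0.020 when scaled on genes under a 5% share) and was not called under the 3 other scalings. The gene called lower was the nucleoside transporter Slc28a3 (-1.04, background share 58.7%).

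Among 8 genes tied to ATP release Calhm6 was called higher (0.72, edgeR adjusted p = 0.0349) at 3.94 ± 1.02 CPM in the knockdown-labelled and 2.37 ± 0.762 CPM in the control libraries (SD, n = 5 each), and it was not called under the 3 other scalings. Leaving out 1 library in turn kept the Calhm6 call in 6 of 10 fits. Panx2 (-1.13) and the vesicular nucleotide transporter Slc17a9 (-0.48, kept in 3 of the 10 such fits) were called lower, and Gja1 (-0.43) was not called. Of the 8 G protein alpha subunits 6 were called higher and none lower, beside 22.9% higher and 31.3% lower of all tested genes. All 6 had knockdown-labelled libraries above all control libraries, as did 12.6% of all tested genes. They include Gna13 (0.36), Gnai3 (0.33), Gna12 (0.30) and Gnai2 (0.28), with background shares of 0.168% to 1.60%. Of all tested genes with a share under 5%, 75.3% were called higher. These 4 subunits were still called higher on the upper quartile (0.14 to 0.21) and on library totals (0.078 to 0.15), and Gna13 alone of the 4 also when scaled on genes under a 5% share (0.11). Whether they differ in this from the abundant receptors was not tested.

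**Figure D5:**
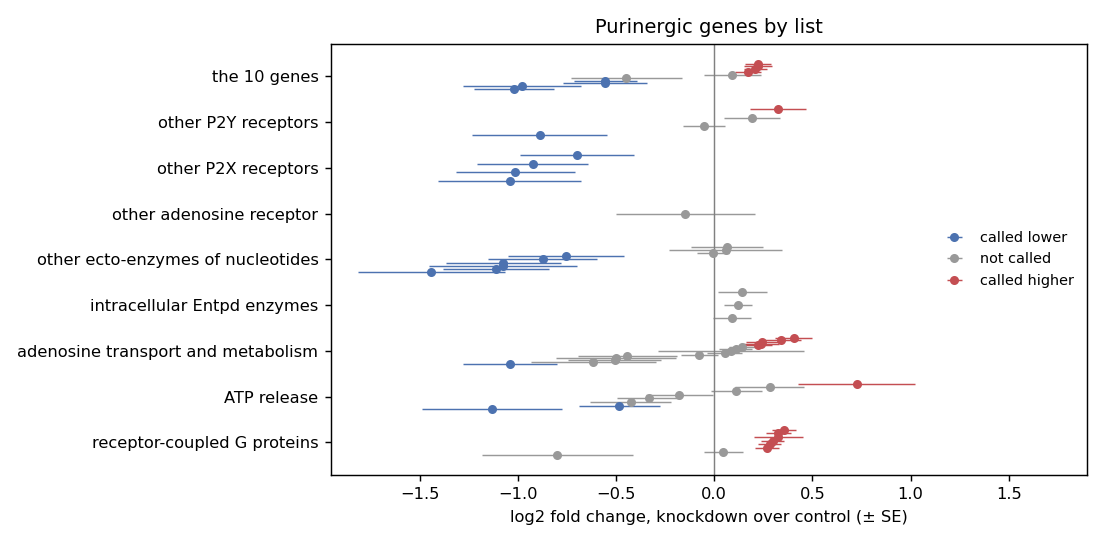
Log2 fold change (knockdown-labelled over control, ± SE) of the 10 genes and of the tested genes of 8 other purinergic lists, coloured by call. The 4 other P2X channels all lie below 0 and 6 of the 8 G protein subunits are called higher, a call made for 22.9% of all tested genes.

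The genes whose levels ran most like those of P2ry6 and P2rx4 were found over the 10 libraries among 3807 genes with at least 50 CPM, by the root-mean-square difference of centred log2 CPM. Nearest to P2ry6 were Ncf4 (0.0361) and Foxp1 (0.0405), beside a median of 0.111 over all genes compared. Nearest to P2rx4 were Anapc2 (0.0304) and Hist1h1c (0.0366), beside a median of 0.0923. Libraries of 1 group shared their depth and background density, which these differences do not remove.

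Markers of other cell types than macrophages were low beside the microglial ones. Border macrophage and monocyte markers, of cells that share most of these receptors, summed to 950.2 to 1093 CPM in the knockdown-labelled and 783 to 894 CPM in the control libraries. Most of this came from Mrc1 (740 and 596 CPM on average) and Ms4a7 (260 and 215 CPM). Mrc1, Ms4a7 and Pf4 were called higher, and Cd163 (background share 40.6%) and Ccr2 (52.6%) lower. Lyve1, with a share of 98.2%, was not tested. The sum thus does not show how many such cells were present. Astrocyte markers summed to 168 to 203 CPM in the knockdown-labelled and 175 to 195 CPM in the control libraries, with 2 of 9 tested called higher and 2 lower. Gfap gave 65.4 CPM in the knockdown-labelled and 52.5 CPM in the control libraries on average and was called higher, while Slc1a2 (-0.43) and Slc1a3 (-0.32) were called lower. Endothelial markers spanned 148 to 161 CPM in the knockdown-labelled and 151 to 171 CPM in the control libraries, mostly from Flt1, which was called higher while the other 4 tested were called lower. The oligodendrocyte lineage markers spanned 102 to 113 CPM in the knockdown-labelled and 106 to 113 CPM in the control libraries. Neuronal markers spanned 29.0 to 43.5 CPM in the knockdown-labelled and 53.8 to 85.4 CPM in the control libraries, with 7 of 8 tested called lower at a median background share of 50.3%. Fibroblast and mural markers, which include cells known for Nt5e, spanned 15.5 to 28.2 CPM in the knockdown-labelled and 33.8 to 46.8 CPM in the control libraries, with 5 of 5 tested called lower at a median share of 65.8%. Lymphocyte markers, of cells also known for Nt5e and Adora2a, spanned 3.41 to 11.9 CPM in the knockdown-labelled and 11.8 to 21.8 CPM in the control libraries. Of these, 2 of 3 tested were called lower, at a median share of 61.25%. The part of fibroblasts, mural cells or lymphocytes in the levels of Nt5e and Adora2a was not tested.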

How the data were processed

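The authors deposited 1 table of whole-number read counts per gene for each of 10 libraries of total RNA, made with a random-primed strand-marking kit, per the labels' protocols. Per the submitters' processing notes, bcl2fastq was used and the build was GRCm38, also named mm10. Aligner, counter, strandedness and gene models were not given in the sources read here. The 92 ERCC spike-ins among 55563 entries (0 to 2 reads each) were dropped. GENCODE M21 on GRCm38 supplied symbols, exon lengths and positions for 55230 genes. In each group lane 7 held replicates 1 to 3 and lane 8 held replicates 4 and 5. No libraries of a group were duplicates by a chi-square test of their counts (1.76 to 4.475 per degree of freedom).

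Genes were filtered with filterByExpr, scaled by TMM (trimmed mean of M values) and tested with edgeR 4.0.16 in R 4.3.3 (quasi-likelihood, robust, with a term for group alone). P-values were adjusted by Benjamini and Hochberg's method over 19263 genes, with a threshold of 0.05. CPM are counts per 1000000 reads after TMM scaling. Alternatives used DESeq2 1.42.0, limma-voom (limma 3.58.1), other scalings, filters, covariates and thresholds, single lanes, subtracted background and each library left out. Library totals of 4.32 to 6.64, in units of 1000000 reads, set the precision of low genes. The 10 genes, the other lists, the background measure and the motifs were chosen with earlier results of these data known. Genes named from the other lists are up to 4 per list with the smallest p, plus P2ry12, overlapping or host genes, and 2 most similar genes for each of the 3 members highest per kilobase. Some genes under this rule are not reported here. Python 3.11.15 with matplotlib 3.10.9 drew the figures.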

Additional observations from a re-analysis of the deposited data

Results flagged for a closer look

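Dixon's test for a single library far from the other 4 of its group was run on the CPM of 80 groups, of which chance marks about 1 in 20, and it marked 6. P2ry13 was lowest in control replicate 5 at 8.21 CPM, beside 12.7 to 13.99 CPM in the other control libraries. Adora1 was highest in control replicate 2 at 12.7 CPM, beside 6.43 to 8.11 CPM. Adora2b was highest in knockdown-labelled replicate 3 at 3.21 CPM, beside 1.38 to 1.89 CPM. P2rx3 (3.21 CPM, beside 4.97 to 5.28 CPM) and Enpp3 (2.5 CPM, beside 4.99 to 5.89 CPM) were lowest in control replicate 5. Gna12 was lowest in control replicate 2 at 268.7 CPM, beside 295.7 to 304.8 CPM.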

How the results depend on the processing

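Counts of calls are given in the order members, the 54 other purinergic genes, all genes, each as higher and lower, with 4 and 4, 13 and 14, and 4418 and 6033 by the reported test. Filters and subtraction also removed genes from the test, so fewer calls there are in part fewer genes tested. Fits with background subtracted were also scaled on genes under a 5% share, so their counts hold both changes and compare with that scaling. With a filter of 5 CPM in 5 libraries (8 members and 32 others tested) they were 0 and 3, 6 and 4, and 2057 and 2239. With background density as a covariate they were 0 and 0, 0 and 0, and 4 and 16. With beta-defensin background subtracted (7 members and 33 others tested) they were 0 and 0, 0 and 0, and 59 and 212. With vomeronasal background subtracted (10 members and 43 others tested) they were 0 and 3, 0 and 6, and 222 and 3731. With olfactory receptor background subtracted (9 members and 38 others tested) they were 0 and 1, 0 and 2, and 153 and 1863. With lane 8 alone they were 0 and 0, 1 and 0, and 67 and 153. With library totals they were 0 and 4, 4 and 23, and 759 and 7888. With scaling on genes under a 5% share they were 0 and 5, 1 and 24, and 315 and 8585. With upper-quartile scaling they were 0 and 4, 6 and 19, and 1685 and 7195. With an adjusted p under 0.01 they were 3 and 3, 8 and 8, and 3241 and 4096. The 2 backgrounds from vomeronasal and beta-defensin genes were added after the data were seen. Leaving out 1 library gave 3 to 4 and 3 to 4, 11 to 14 and 9 to 16, and 4032 to 5015 and 4928 to 6967. DESeq2 gave 4 and 3 among the members, Adora1 losing its call (-0.49).

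The replicate numbers did not pair the libraries, since same-numbered libraries correlated at r = -0.213 to 0.16. With the replicate block 4 members were called higher and 4 lower, 13 and 13 of the other purinergic genes, and 4405 and 5949 of all genes.

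Signs turned as follows (log2 fold change, cause not tested). Values with background subtracted also hold the scaling on genes under a 5% share, under which many of the same signs turned without subtraction. With DESeq2, the value was P2ry2 0.015. With a filter of 5 CPM in 5 libraries, values were P2ry13 -0.027 and Entpd5 -0.029. With background density as a covariate, values were P2ry6 -0.051, Adora1 0.45, P2ry4 0.034, Entpd7 -0.036, Entpd6 -0.096, Nt5c -0.0044, Slc29a3 -0.0047 and Slc17a9 0.21. With beta-defensin background subtracted, values were P2ry6 -0.092, P2ry13 -0.045, P2ry14 0.073, P2rx4 -0.052, Entpd1 -0.0094, Entpd7 -0.059 and Gnai2 -0.0045. With vomeronasal background subtracted, values were P2ry6 -0.080, P2ry13 -0.11, P2rx4 -0.043, P2rx7 -0.0089, Entpd1 -0.015, Entpd7 -0.095, Entpd6 -0.017, Entpd5 -0.092 and Slc29a3 -0.0034. With olfactory receptor background subtracted, values were P2ry6 -0.084, P2ry13 -0.086, P2rx4 -0.046, P2rx7 -0.0020, Entpd1 -0.014, Entpd7 -0.082, Entpd5 -0.058, Gja1 0.27 and 3222401L13Rik 0.32. With lane 7 alone, the value was P2ry13 -0.025. With library totals, values were P2ry6 -0.033, P2ry13 -0.12, P2ry1 -0.011, Entpd7 -0.083, Entpd6 -0.060 and Entpd5 -0.12. With no filter on low counts, the value was P2ry2 0.075. With scaling on genes under a 5% share, values were P2ry6 -0.073, P2ry13 -0.16, P2rx4 -0.037, P2rx7 -0.020, Entpd1 -0.021, P2ry1 -0.051, Entpd7 -0.12, Entpd6 -0.10, Entpd5 -0.16 and Slc29a3 -0.020. With upper-quartile scaling, values were P2ry13 -0.055, Entpd7 -0.024, Entpd6 -0.0017 and Entpd5 -0.056. Without control replicate 1, values were P2ry2 0.017 and Adora2b 0.053. Without control replicate 5, the value was P2ry2 0.032. Without knockdown-labelled replicate 2, the value was P2ry2 0.017. Adora2b ranged from -0.37 to 0.053 with 1 library left out. Entpd4 had no reads and gave no value, and low read counts limit Nt5e and the adenosine receptors.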
